A study of Homo sapiens with 4 samples.

Results

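The genes described here are members of the p53 pathway, mostly direct targets of the transcription factor p53, in Reh-6-MPR cells. They were given as 38 gene symbols, which were chosen from results of these same data, so their levels with histidine + 6-MP are a description and are not tested. Of the 38, 37 have a row in the deposited table of 29833 genes, and SPATA18 was not analysed here. A mean of 1 FPKM or more across the 4 libraries was reached by 33 of them, and the other 4 (GDF15, TIGAR, EDA2R and CMBL) were below it. FPKM is the read count of a gene relative to its length and to the reads of its library. FAS passed this filter only through the library in which it was high.

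Reh is a long-established cell line of human acute lymphoblastic leukemia of B-cell origin (B-ALL), and Reh-6-MPR is its derivative selected in stepwise rising 6-mercaptopurine (6-MP), a thiopurine used to treat ALL. The labels give the genotype as WT. The cells were kept without 6-MP before the experiment and then received vehicle (PBS), 4 mM histidine, 1.0 μg/mL 6-MP or both for 48 h, in RPMI medium with serum. One resistant line was profiled, with 1 library per treatment, so differences could not be checked against replicates and are given without p-values. The comparison asks how the transcriptome of these cells differs when either agent, or both, is given.

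p53 is kept at low levels by MDM2, which ubiquitinates it, and by the related MDM4, which blocks its activity. DNA damage and nucleotide stress activate kinases that free p53 from this control, after which it binds its response elements and raises transcription of genes for cell cycle arrest, DNA repair, apoptosis and metabolism. Several of these targets, MDM2 and the phosphatase PPM1D among them, feed back to restrain p53. Leukemic lymphoblasts with a working p53 pathway are known to use it in their response to cytotoxic drugs. A p53 response element consists of a pair of half-sites, and RefSeq promoters (GRCh38.p14, 250 bases before to 50 after each transcription start) were searched for the exact 10-base p53 half-site, which reads the same on both strands.

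Promoters were found for 30 of the 38 genes, 47 in all. The 8 genes without one were not searched. They were PHLDA3, TP53INP1, GADD45A, TNFRSF10A, TNFRSF10B, RRM2B, ASCC3 and CMBL. An exact half-site was held by 6 of these 47 (12.8%), compared with 2329 of all 35116 promoters (6.63%). A pair of half-sites with at most 1 mismatch over the whole pair and a spacer of at most 3 bases was held by 1 promoter, that of DDB2. It was held by 96 of all promoters (0.273%). The sites are shown because they are the letters p53 is known to recognise, written 5′ to 3′ with the half-sites in capitals. A match is only a description of the letters, and no match says nothing of sites elsewhere in the gene.
AEN: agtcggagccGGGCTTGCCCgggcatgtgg
DDB2: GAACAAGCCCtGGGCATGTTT
FAS: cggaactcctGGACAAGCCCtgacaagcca
FDXR: gggcaggagcGGGCTTGCCCt
RAP2B: ggaacgcactGGGCATGCTCgccggggagg
RPS27L: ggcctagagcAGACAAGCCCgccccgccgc

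On GRCh38.p14 these stretches lie at chr15:88621296-88621325 (AEN, plus strand), chr11:47214979-47214999 (DDB2, plus strand), chr10:88991299-88991328 (FAS, plus strand), chr17:74872995-74873015 (FDXR, minus strand), chr3:153162155-153162184 (RAP2B, plus strand) and chr15:63157517-63157546 (RPS27L, minus strand). In GENCODE 29 those of AEN, DDB2, FDXR and RPS27L lie in an exon with untranslated sequence, that of FAS in an exon, and that of RAP2B upstream of the gene. The 6 genes differed widely in level and in their values with histidine + 6-MP, from RAP2B, near the bottom of the order, to FAS, near the top.

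The libraries behind the FPKM values held 12899122 reads for histidine + 6-MP and 14316493 to 15486376 for the other 3. Markers of B-lineage lymphoblasts were summed at 1263 to 1327 FPKM in the 4 libraries, with 9 of 10 markers in the table. Of the T cell markers, TRAC alone had a row, at 11.6 FPKM with vehicle and 32.1 with histidine + 6-MP, while CD3D, CD3E, CD3G and CD2 had none. Myeloid markers were summed at 27.0 to 31.2 FPKM in the other 3 libraries and at 43.7 with histidine + 6-MP, nearly all of it MPO. Erythroid markers summed to at most 0.492 FPKM, and COL1A1, the only 1 of the 5 fibroblast markers listed that had a row, had 0.869 FPKM with vehicle and 2.04 with histidine + 6-MP. The part of these values in the results was not tested.

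With histidine + 6-MP, most of the 33 p53 pathway and target genes had higher FPKM than in any other library, and with histidine or 6-MP alone they stayed near vehicle. Their summed level was 366.8 FPKM (vehicle), 361.6 (histidine), 368.8 (6-MP) and 806.6 (histidine + 6-MP). The median level was 8.77, 9.14, 9.47 and 18.6 FPKM, respectively. In bulk RNA, a larger share of cells that express a gene and more RNA of it per cell cannot be told apart.

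Fold changes are differences of log2(FPKM + 1), a scale on which genes of low FPKM appear less changed than they are, and a gene counted as higher or lower at an absolute difference of at least 1. Of the 33 genes, 19 were higher with histidine + 6-MP than with vehicle, 19 than with histidine and 19 than with 6-MP, and 0 were lower in any of the 3 comparisons. Over all 12750 genes tested, the shares higher were 5.01%, 4.15% and 4.82%, and the shares lower 1.51%, 1.4% and 1.2%. The 3 comparisons share the histidine + 6-MP library. Against all 3 other libraries at once 18 of the 33 were higher, beside 2.7% of all genes tested. At a difference of at least 0.5 from vehicle, 28 were higher, beside 19.7% of all genes, and 0 were lower, beside 7.37%. The medians of the 33 were 1.09, 1.11 and 1.11 on this log2 scale, and those of all genes tested were 0.13, 0.11 and 0.13. When the libraries were scaled by the median ratio, which brings the median of all genes close to 0, 15 of the 33 were higher than with vehicle, beside 3.7% of all genes. The 4 that dropped below the threshold were RRM2B (0.999), BLOC1S2 (0.944), POLH (0.917) and XPC (0.883).

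**Figure D1:**
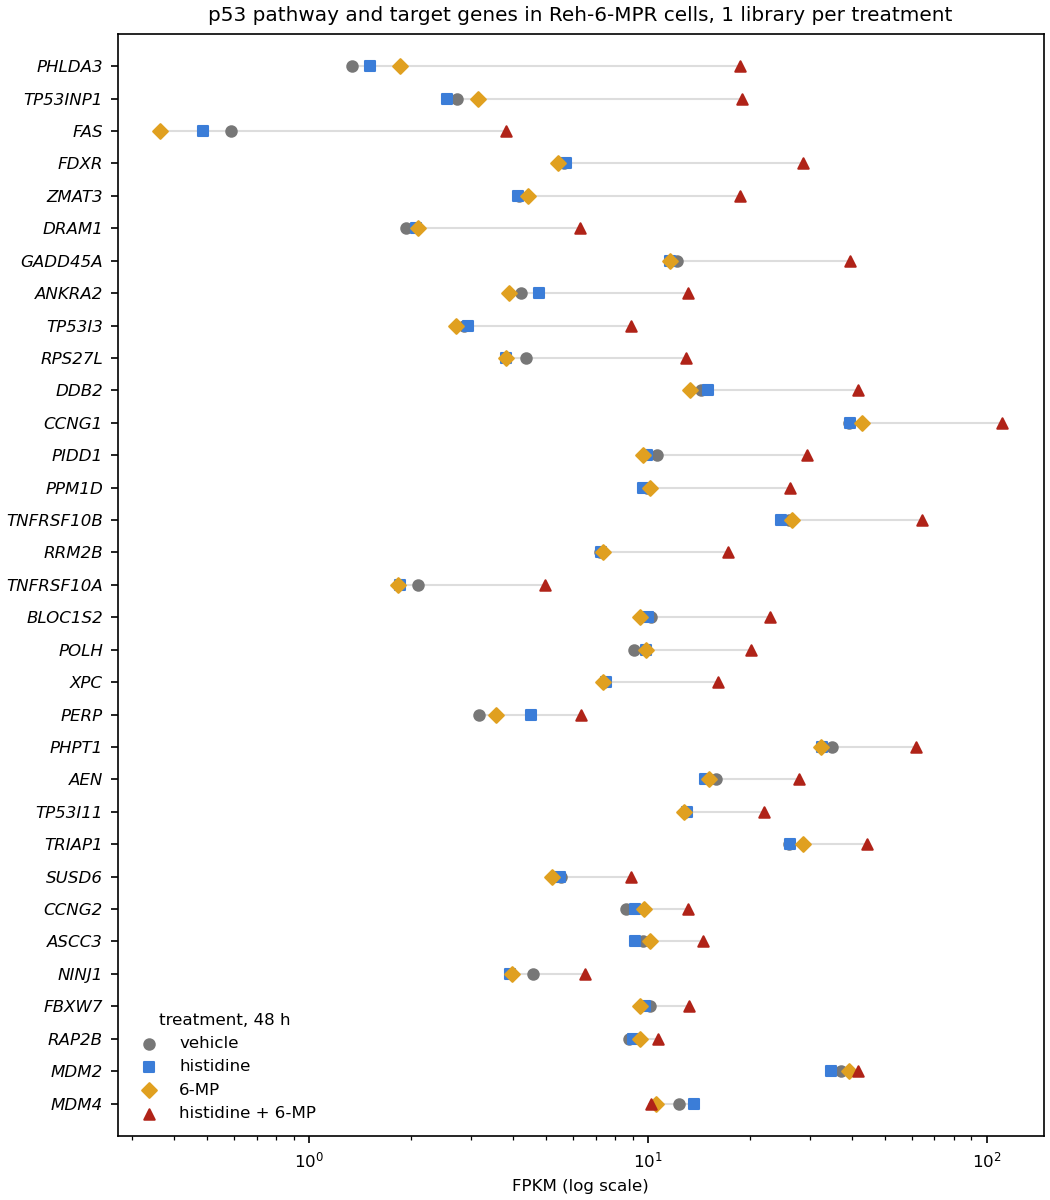
FPKM (log axis) of the 33 p53 pathway and target genes past the FPKM filter, with 1 symbol for each treatment library and a grey line over the range of the 4 values, ordered by the ratio of histidine + 6-MP to vehicle. The histidine + 6-MP triangle is the rightmost symbol for 32 genes, and for MDM4 it is the leftmost.

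Among the 6 regulators of p53, 4 were higher with histidine + 6-MP in each of the 3 comparisons, and the main inhibitors MDM2 and MDM4 were not. CCNG1, cyclin G1, which brings a phosphatase to MDM2, had an FPKM of 39.3 (vehicle), 39.4 (histidine), 42.7 (6-MP) and 110.5 (histidine + 6-MP). The histidine + 6-MP value was 2.81 times that of vehicle (95% interval of the read ratio 2.66 to 2.97). These intervals are exact Clopper-Pearson intervals on the reads behind the FPKM values, and they cover counting error only and compare libraries, not treatments. PPM1D, the phosphatase WIP1 that switches off p53 and its kinases, had 9.94, 9.69, 10.1 and 26.2 FPKM in the same order of libraries, a ratio of 2.63 (2.41 to 2.87) to vehicle. ZMAT3, an RNA-binding zinc finger protein (chr3:178960121-179072215, minus strand), had 4.15, 4.13, 4.41 and 18.6 FPKM. Its ratio of 4.48 (4.12 to 4.88) was the largest of the regulators, with the other 3 libraries close together. RPS27L, a ribosomal protein and paralog of RPS27, had 4.36, 3.82, 3.81 and 13.0 FPKM, and its ratio was 2.98 (2.70 to 3.29) to vehicle and 3.40 to both histidine and 6-MP. Reads of RPS27L may be shared with RPS27, and how the counting treated them is not given in the sources used here.

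MDM2 (chr12:68808177-68845544, plus strand) is named here for its role, after its values were seen. It had 37.1, 34.6, 39.3 and 41.7 FPKM, from vehicle to histidine + 6-MP. It was thus highest with both agents, but only 1.12 times vehicle (1.08 to 1.17) and 1.06 times 6-MP (1.02 to 1.11). The second of these was a log2 difference of 0.086, which became -0.058 when the libraries were scaled by the median ratio. Against vehicle its log2 difference was 0.16, close to the median of all genes tested, 0.13, and under that scaling it was 0.012. MDM4 was the 1 gene of the 33 that was lowest with histidine + 6-MP. It had 12.4, 13.6, 10.5 and 10.2 FPKM, and the ratio of histidine + 6-MP was 0.827 (0.772 to 0.886) to vehicle, 0.751 (0.703 to 0.802) to histidine and 0.973 (0.907 to 1.04) to 6-MP. With 6-MP alone MDM4 was also below vehicle, at a ratio of 0.85 (0.80 to 0.91), and with histidine alone above it, at 1.10 (1.04 to 1.17).

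Of the 11 death receptor and apoptosis genes in the count, 6 were higher with histidine + 6-MP than with vehicle and 7 were higher than with histidine and than with 6-MP. PHLDA3, which competes with the kinase AKT for membrane lipids (chr1:201464278-201469237, minus strand), had the largest ratio of the 33 genes to vehicle. It had 1.34, 1.51, 1.85 and 18.6 FPKM, from 62, 76, 92 and 780 reads. The ratios were 14.0 (10.8 to 18.4), 12.3 (9.73 to 15.8) and 10.1 (8.12 to 12.7) to vehicle, histidine and 6-MP. TP53INP1, a nuclear protein that promotes p53-dependent apoptosis and autophagy, had 2.74, 2.55, 3.14 and 18.9 FPKM, a ratio of 6.93 (6.00 to 8.02) to vehicle. The gene on the opposite strand that overlaps it, NDUFAF6, had 4.18 FPKM with vehicle and 8.38 with histidine + 6-MP, and whether the counting used strand is not given in the sources used here.

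The death receptors had very different levels, and 2 of them, FAS and TNFRSF10B, were higher with histidine + 6-MP in all 3 comparisons. FAS, the receptor of FAS ligand (chr10:88990531-89017059, plus strand), had 0.589, 0.486, 0.362 and 3.81 FPKM, from 47, 42, 31 and 274 reads. Its ratios were 6.47 (4.73 to 9.02) to vehicle, 7.83 (5.64 to 11.1) to histidine and 10.5 (7.24 to 15.8) to 6-MP, with wide intervals that follow from the few reads of the other libraries. TNFRSF10B, the TRAIL receptor DR5, was far more abundant, at 26.1, 24.7, 26.6 and 64.2 FPKM, a ratio of 2.46 (2.33 to 2.60) to vehicle. TNFRSF10A, the TRAIL receptor DR4, had 2.10, 1.85, 1.83 and 4.95 FPKM. It missed the threshold against vehicle, at a log2 difference of 0.94, and passed it against histidine (1.06) and 6-MP (1.07), though not after scaling by the median ratio (0.955 and 0.958). EDA2R, the receptor of ectodysplasin A2, was listed at 0 reads in 3 libraries and at 3 reads with histidine + 6-MP, which is at the floor of 3 reads used here, so no fold is given.

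PIDD1, the scaffold of the complex that activates caspase-2, had 10.6, 9.95, 9.64 and 29.4 FPKM, a ratio of 2.78 (2.57 to 3.01) to vehicle. TP53I3, a quinone oxidoreductase, had 2.87, 2.93, 2.71 and 8.89 FPKM, a ratio of 3.10 (2.44 to 3.96). Both stood apart from 3 close values in the other libraries. The rest of the group was below the threshold in all 3 comparisons. PERP, a tetraspan membrane protein, had 3.16, 4.51, 3.56 and 6.33 FPKM, and with histidine alone it was at 1.43 times vehicle (1.18 to 1.72). AEN, an exonuclease that takes part in DNA fragmentation in apoptosis, had 15.9, 14.7, 15.2 and 27.9 FPKM. TP53I11 had 12.8, 13.0, 12.8 and 22.0 FPKM, and TRIAP1, a mitochondrial protein that restrains apoptosis, had 26.1, 26.3, 28.6 and 44.3 FPKM. The ratios of these 4 to vehicle were 2.0 for PERP, 1.76 for AEN, 1.71 for TP53I11 and 1.70 for TRIAP1.

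**Figure D2:**
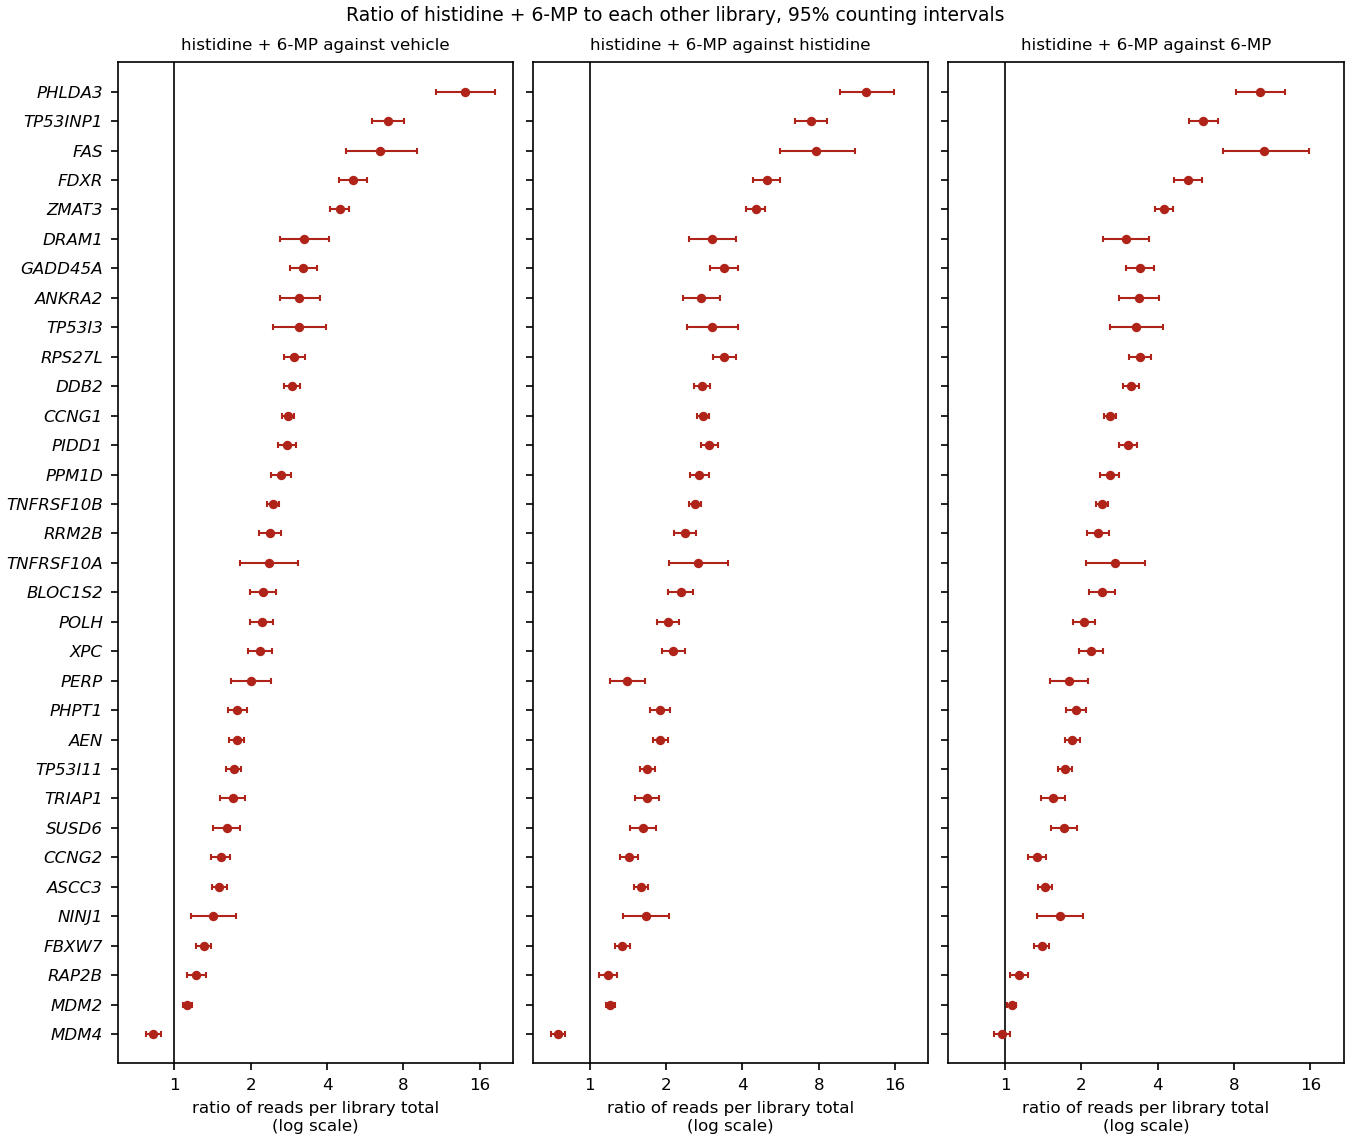
Ratio of reads per library total (log axis) of histidine + 6-MP to vehicle, to histidine and to 6-MP for the 33 p53 pathway and target genes, with points for the ratio, bars for the exact 95% counting interval and a vertical line at 1. PHLDA3 is at the top with 14.0, 12.3 and 10.1, and MDM4 at the bottom with 0.827, 0.751 and 0.973.

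Of the 6 genes of DNA repair and nucleotide supply, 5 were higher with histidine + 6-MP than with vehicle and 4 were higher than with each agent alone. GADD45A, a stress protein that binds PCNA and activates stress kinases (chr1:67685201-67688334, plus strand), had 12.2, 11.6, 11.6 and 39.3 FPKM, a ratio of 3.23 (2.85 to 3.66) to vehicle. DDB2, which recognises ultraviolet damage in chromatin and whose promoter holds the pair of half-sites shown above, had 14.3, 15.1, 13.3 and 41.7 FPKM, a ratio of 2.91 (2.70 to 3.13). XPC, the damage sensor of global nucleotide excision repair, had 7.40, 7.54, 7.38 and 16.1 FPKM, a ratio of 2.18 (1.95 to 2.43). In each of the 3 the histidine + 6-MP value stood far above the other 3, which lay close together. RRM2B, the ribonucleotide reductase subunit that p53 induces to supply deoxynucleotides, had 7.22, 7.25, 7.39 and 17.2 FPKM, a ratio of 2.38 (2.15 to 2.63). POLH, the polymerase that copies past damaged bases, had 9.12, 9.88, 9.85 and 20.1 FPKM. Its log2 difference was 1.06 from vehicle and 0.96 from both histidine and 6-MP, on either side of the threshold. ASCC3, a helicase used in the repair of alkylated DNA, was below the threshold in all 3, with 9.67, 9.14, 10.1 and 14.6 FPKM and a ratio of 1.51 to vehicle.

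In metabolism, FDXR stood out. FDXR, the mitochondrial reductase that passes electrons to ferredoxin (chr17:74862497-74873031, minus strand), had 5.67, 5.74, 5.43 and 28.6 FPKM, from 292, 320, 300 and 1327 reads. It was 5.04 times vehicle (4.44 to 5.74), the fourth-largest ratio of the 33 genes. PHPT1, a phosphatase that removes phosphate from histidine residues of proteins, had 35.0, 32.6, 32.4 and 61.9 FPKM, a ratio of 1.77 (1.62 to 1.94) that was below the threshold. TIGAR, a phosphatase that lowers the glycolytic activator fructose-2,6-bisphosphate, was below the FPKM filter, at 0.643, 0.636, 0.952 and 1.43 FPKM. From 29 reads with vehicle and 58 with histidine + 6-MP, its ratio was 2.22 (1.40 to 3.60). CMBL, a hydrolase, had 1 read with histidine + 6-MP and 0 in the other libraries, below the floor of 3 reads.

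The genes of the lysosome, secretion, the membrane and other roles were mixed, with 3 of 6 higher than with vehicle. DRAM1, a lysosomal membrane protein that promotes autophagy, had 1.93, 2.07, 2.10 and 6.28 FPKM, a ratio of 3.25 (2.61 to 4.08) to vehicle. ANKRA2, an ankyrin repeat protein, had 4.21, 4.78, 3.89 and 13.1 FPKM, a ratio of 3.11 (2.60 to 3.73). BLOC1S2, a subunit of a complex for lysosome-related organelles, had 10.2, 10.0, 9.49 and 22.8 FPKM, a ratio of 2.24 (1.99 to 2.53). These were higher than in each other library, whereas the remaining 3 were below the threshold. SUSD6 had 5.53, 5.48, 5.21 and 8.88 FPKM. NINJ1, a membrane protein that ruptures dying cells, had 4.59, 3.92, 3.95 and 6.52 FPKM, a ratio of 1.42 (1.16 to 1.75). RAP2B, a small GTPase, had 8.77, 9.05, 9.44 and 10.7 FPKM, a ratio of 1.22 (1.12 to 1.33).

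GDF15, a secreted cytokine of the TGF-β superfamily, was below the FPKM filter and had the most uneven reads. It had 3, 0, 1 and 38 reads from vehicle to histidine + 6-MP, or 0.10, 0, 0.0312 and 1.41 FPKM. Its ratio was 14.1 to vehicle (4.46 to 71.2) and 45.2 to 6-MP (7.64 to 1832), and it was at least 15.2-fold higher than with histidine, taking the floor of 3 reads for that library. The width of these intervals follows from the few reads.

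Both genes of the cell cycle and protein turnover were below the threshold. CCNG2, cyclin G2, had 8.61, 9.14, 9.76 and 13.1 FPKM, a ratio of 1.52 (1.39 to 1.66) to vehicle. FBXW7, the substrate receptor of a ubiquitin ligase for MYC and cyclin E, had 10.1, 9.82, 9.47 and 13.2 FPKM, a ratio of 1.31.

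The intervals of the read ratio of histidine + 6-MP lay above 1 for 32 of the 33 genes against each of vehicle, histidine and 6-MP, and below 1 for MDM4 against the first 2. Of all genes tested, the interval lay above 1 for 42.7%, 41.1% and 42.2%, and below it for 20.8%, 22.1% and 21.2%. The histidine + 6-MP library was the highest of the 4 for 32 of the 33 genes, beside 53.8% of all genes tested.

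With histidine alone and with 6-MP alone, 0 of the 33 genes passed the threshold in either direction. Beside this, 0.8% of all genes were higher and 0.533% lower with histidine, and 0.463% higher and 0.722% lower with 6-MP. The medians of the 33 were -0.0063 with histidine and -0.0080 with 6-MP on the log2 scale. The spread among the 3 libraries other than histidine + 6-MP was small, with a median ratio of the highest to the lowest FPKM of 1.09 and a range of 1.02 to 1.62. FAS had the largest of these ratios.

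Some single-agent read ratios had an interval apart from 1, and with 6-MP about as often as over all genes tested. With histidine, PERP and MDM4 were above vehicle and MDM2 and RPS27L below it, beside 12.9% of all genes above and 8.68% below. With 6-MP, CCNG1, CCNG2 and MDM2 were above vehicle and FAS, RPS27L and MDM4 below it, beside 9.97% above and 7.88% below.

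Departure from additivity is the log2 value with histidine + 6-MP minus the values of both single agents plus that of vehicle, so that 0 means that the combined value equals the sum of the single differences. It was at least 1 for 20 of the 33 genes, beside 4.85% of all genes tested. The median of the 33 was 1.17, and that of all genes tested was 0.11. PHLDA3 had the largest value, 2.68, followed by TP53INP1 (2.34), FDXR (2.19), FAS (1.92) and ZMAT3 (1.86). At the other end, RAP2B had 0.12, and MDM4 had -0.17. PERP had 0.28.

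**Figure D3:**
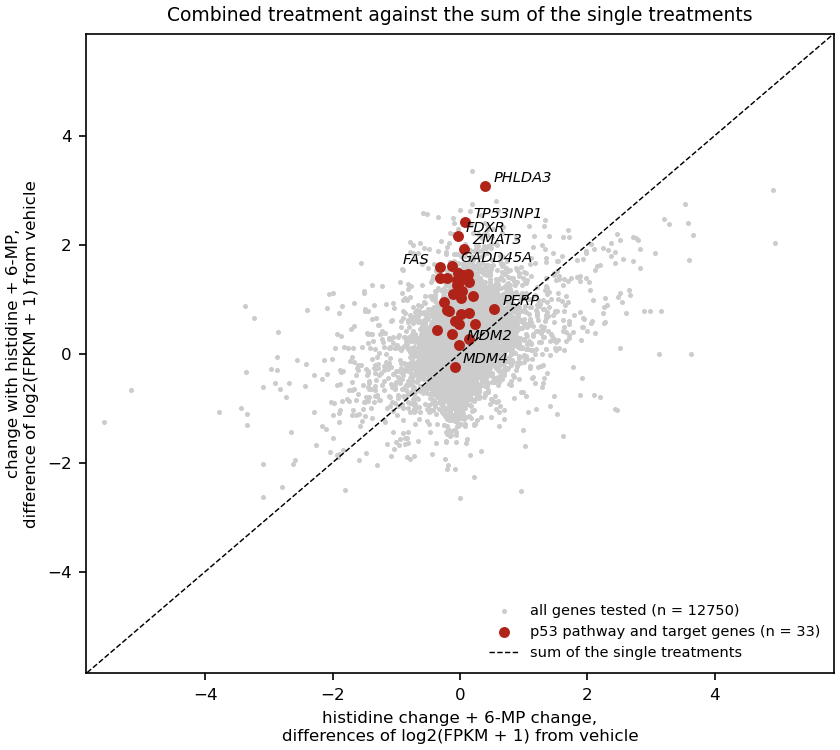
Difference of log2(FPKM + 1) of histidine + 6-MP from vehicle (vertical axis) against the sum of the differences of histidine and of 6-MP from vehicle (horizontal axis), with 1 grey dot for each of the 12750 genes tested and red dots for the 33 p53 pathway and target genes. The dashed line marks equality, and all red dots but that of MDM4 lie above it, PHLDA3 by 2.68.

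Other genes of the pathway were followed in lists chosen with earlier results of these data known. Of 12 tested sensors and regulators of p53, 0 were higher and 0 lower with histidine + 6-MP than with vehicle. Of all genes tested, only 5.01% were higher and 1.51% lower, so a count of 0 among 12 genes sets them little apart. The median log2 difference of the 12 was 0.046. PML, the organiser of nuclear bodies, ATM, the kinase activated by DNA breaks, and SIAH1, a ubiquitin ligase, had the highest differences of the list, 0.64, 0.53 and 0.27. USP7, the deubiquitinase of MDM2 and p53, had the lowest, -0.62, at 35.8 FPKM with vehicle and 22.9 with histidine + 6-MP. The kinases CHEK2 and HIPK2 followed, at -0.25 and -0.24.

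Of 28 other p53 targets, 21 were tested. With histidine + 6-MP, 15 of the 21 were higher than with vehicle and 0 lower, beside 5.01% and 1.51% of all genes tested. The median of the 21 was 1.22. The highest were CD82, a tetraspanin (1.14 FPKM with vehicle and 11.4 with histidine + 6-MP, 2.54 on the log2 scale), BTG2, an antiproliferative gene (12.1 and 72.4 FPKM, 2.48), and BBC3, the BH3-only protein PUMA (2.06 and 15.2 FPKM, 2.40). CES2 (0.13), SESN2 (0.17) and APAF1 (0.35) were the lowest. CDKN1A, the cell cycle inhibitor p21 and named here for its role, had 48.6, 42.8, 41.4 and 155 FPKM, a log2 difference of 1.65 from vehicle. With histidine alone the median of the 21 was 0.0040, with a range of -0.62 (SESN2) to 0.33 (CD82). With 6-MP alone it was -0.0053, with a range of -0.23 (CDKN1A) to 0.42 (SERTAD1).

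Activated p53 is known to lower many mitotic genes through p21 and the DREAM repressor complex. Of 14 such genes, 0 were higher and 4 lower with histidine + 6-MP than with vehicle, beside 5.01% and 1.51% of all genes tested. The median of the 14 was -0.40. The 4 were CDC20, the activator of the anaphase-promoting complex (157 FPKM with vehicle and 35.3 with histidine + 6-MP, -2.12), the kinase PLK1 (-2.11), the cyclin CCNB1 (-1.29) and the checkpoint kinase BUB1 (-1.06). The transcription factors MYBL2 (0.36) and FOXM1 (0.23) and the p53-binding protein GTSE1 (0.11) had the highest values. With histidine or 6-MP alone 0 of the 14 were higher or lower. Of all genes tested, 0.8% were higher and 0.533% lower with histidine, and 0.463% higher and 0.722% lower with 6-MP. Whether p53, p21 or DREAM had a part in these values was not tested.

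**Figure D4:**
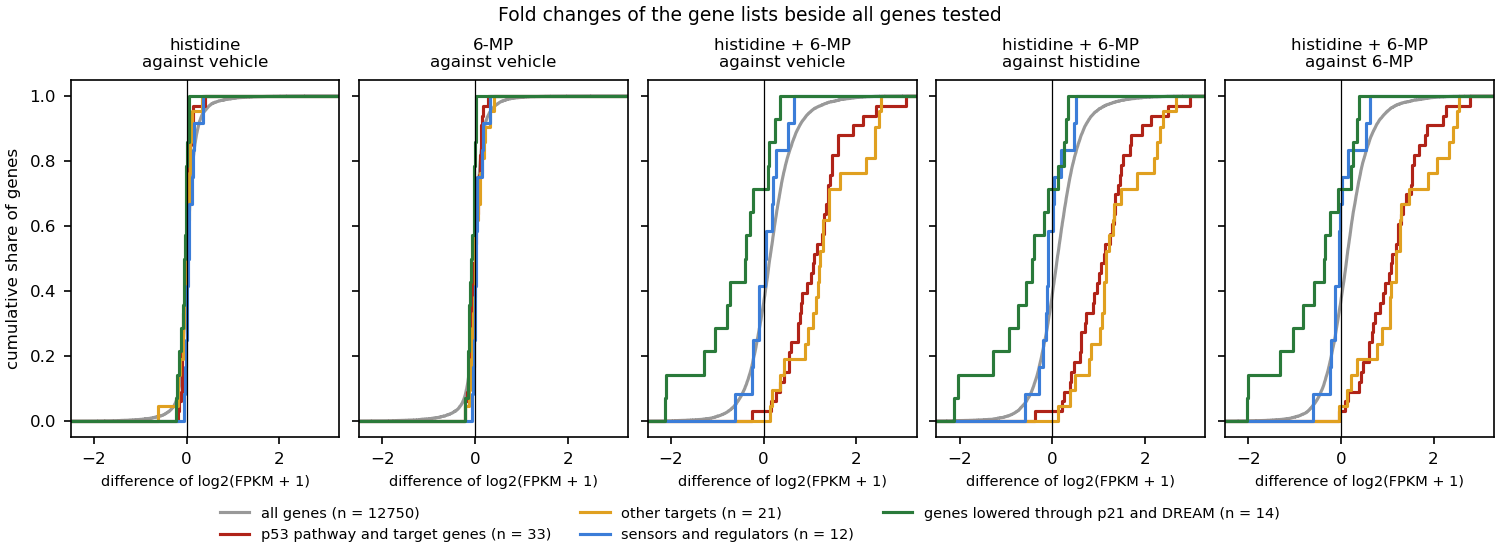
Cumulative share of genes (vertical axis) by difference of log2(FPKM + 1) (horizontal axis) in the 5 comparisons, with 1 line for each gene list and a grey line for all 12750 genes tested. With histidine or 6-MP alone the medians of the lists lie close to 0. With histidine + 6-MP the p53 pathway and target genes (median 1.09 from vehicle) and the other targets (1.22) lie to the right of all genes. The p21 and DREAM genes (-0.40) lie to the left.

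The FPKM of a gene can hold reads of a gene that overlaps it. The span of 22 of the genes overlapped another gene of the table, and in 10 the other gene had a mean FPKM of at least 1, on the same strand for MDM2 (a long noncoding RNA) and PHPT1. POLH overlapped GTPBP2, RPS27L overlapped LACTB, and ANKRA2, TNFRSF10B and TP53I3 overlapped UTP15, RHOBTB2 and FAM228B, each on the opposite strand. FAS overlapped ACTA2 on the opposite strand, which had 0.211, 0.174, 0.329 and 2.19 FPKM and so was also highest with histidine + 6-MP, although its mean was under 1. The part of these overlaps in the values was not tested.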

How the data were processed

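RNA-seq of 4 libraries of Reh-6-MPR cells was analysed, 1 per treatment, with groups taken from the sample labels. Stranded poly(A) libraries were sequenced commercially, and the authors deposited 1 FPKM value per gene and library. The submitters' processing notes name Trimmomatic, HISAT2, Cufflinks, HTSeq, hg38 and GRCh38 without roles or versions. Whole reads were recovered from the FPKM steps for 29832 of 29833 genes (tolerance 0.01 reads). The GENCODE 29 length gave whole reads for 16451 genes. Otherwise the shortest length that gave whole reads was taken (13068 genes), or a multiple of it (313 genes). Of the p53 pathway and target genes, 9 used the GENCODE length, 27 the shortest length and 1, CCNG2, a multiple. Where the GENCODE length was not used, the reads and the width of the interval depend on that choice. Differences were taken on log2(FPKM + 1) over the 12750 genes whose FPKM averaged 1 or more, at the study's fold threshold without its P value. Without replicates, no statistical test was run.

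The members, the gene lists and the rule for naming genes (a log2 difference of 1 in either direction in any comparison, or of 0.5 with histidine + 6-MP against vehicle, and the 3 highest and 3 lowest of each other list) were chosen with earlier results of these data known. Genes outside the rule are named because each member is accounted for. A further result is not reported here. The DDB2 pair lies after the transcription start and was shown after it was seen, although only bases before the start were planned. Alternatives were scaling by the median ratio, a threshold of 0.5, a pseudocount of 0.1, a minimum mean FPKM of 5 and no filter. The scripts were tested on simulated data. Scripts ran under Python 3.11.15 with scipy 1.17.1 for intervals, numpy 2.4.6 and pandas 2.3.3 for tables and matplotlib 3.10.9 for plots.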

Additional observations from a re-analysis of the deposited data

Results flagged for a closer look

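For 3 of the p53 pathway and target genes, an agent alone and the same agent added to the other gave opposite directions, with counting intervals on either side of 1. None of these differences was tested, since there is 1 library per treatment. FAS was at 0.615 times vehicle with 6-MP alone (0.378 to 0.989) and at 7.83 times histidine when 6-MP was added to histidine (5.64 to 11.1). RPS27L was at 0.874 times vehicle with 6-MP alone (0.773 to 0.987) and at 0.876 times vehicle with histidine alone (0.775 to 0.989), and at 3.40 times the single-agent library in both cases with the other agent present. MDM2 was at 0.932 times vehicle with histidine alone (0.894 to 0.972) and at 1.06 times 6-MP with histidine added (1.02 to 1.11).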

How the results depend on the processing

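The counts of p53 pathway and target genes higher with histidine + 6-MP than with vehicle, histidine and 6-MP were 20, 20 and 20 with a pseudocount of 0.1 (beside 9.25%, 7.48% and 8.82% of all genes tested), 20, 20 and 20 of 37 without a filter (3.18%, 2.72% and 3.07%), 16, 15 and 15 of 27 at a mean FPKM of at least 5 (2.92%, 2.48% and 2.56%), 15, 16 and 16 with scaling by the median ratio (3.7%, 3.22% and 3.51%), and 28, 27 and 27 at a threshold of 0.5 (19.7%, 17.8% and 19.3%). With these settings, 0 of the genes were lower in these comparisons, and none passed the threshold with a single agent. Scaling by the median ratio, which lowers the histidine + 6-MP library by 0.156 on the log2 scale relative to vehicle, took the median of the genes against vehicle from 1.09 to 0.94, beside 0.0014 over all genes tested. Under it the difference of MDM2 between histidine + 6-MP and 6-MP changed sign. No paired analysis was possible because the treatments have 1 library apiece, and for the same reason no replicate could be left out. Depth limits the values of GDF15, EDA2R, CMBL, TIGAR and FAS, which had at most 47 reads in each of the other libraries.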
